A study of Mus musculus with 45 samples.

Results

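Hippocampal primary neurons that had fired for 1 h and were then silenced by tetrodotoxin (TTX) in the presence of NMDA for a further 1 h were compared with neurons of the same culture preparations that received no treatment. The first group, LP TTX/NMDA (LP for long protocol), was exposed for 1 h to bicuculline (Bic, 50 µM), which blocks inhibitory GABA type A receptors and so makes the network fire action potentials (APs), and then, with Bic still present, TTX (1 µM), which blocks AP firing, and NMDA (30 µM) in the bath for 1 h. The second group, Control, received none of these. Each group had 5 RNA-seq libraries, 1 from each of the culture preparations numbered 1, 3, 6, 7 and 8, and these 10 libraries were chosen by their treatment labels from the 45 libraries of the series, which has 9 conditions. The other conditions used below as reference points were Bic alone for 0.5, 1 and 2 h, LP TTX (1 h Bic, then 1 h TTX without NMDA), LP TBOA, in which TBOA (50 µM), a blocker of glutamate uptake, was given for the second hour with no TTX, and the short protocol SP TTX/NMDA and SP TTX (0.5 h Bic, then 0.5 h of intervention). All cultures came from newborn C57BL/6N mice (postnatal day 0), were grown in medium with B27 and rat serum, and received AraC, which curbs dividing cells, on day in vitro 3. They were treated on day 10 or 11 by their labels, while the study's methods give day 11 for the RNA-seq. An agonist in the bath reaches receptors of every cell, within synapses and outside them, which limits these cultures as a model of local glutamate release, and they hold glia beside neurons. The preparations are the replicates, and the labels do not say how many animals each held.

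NMDA receptors are glutamate-gated channels that pass calcium. Calcium that enters through synaptic NMDA receptors and voltage-gated calcium channels during firing activates transcription factors such as CREB, SRF and MEF2, which switch on immediate early genes and, later, genes for synaptic and secreted proteins such as Arc, Homer1 and Bdnf. Sustained activation of NMDA receptors outside synapses is known instead to shut off CREB signalling, to load mitochondria with calcium and to lead to neuronal death.

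Reads on genes numbered 11316580 to 50527649 per library in the Control (median 21039805) and 13467115 to 48077885 in LP TTX/NMDA (median 33539111). Levels are given as CPM, the counts of a library relative to its total after scaling by the TMM method, and differences as log2 fold changes ± standard error from edgeR's quasi-likelihood test with the preparation as a block. A gene was called higher or lower when its Benjamini-Hochberg adjusted p over all genes tested was under 0.05. Each of the 5 named lists of cell type markers was detected in every library. The neuron markers summed to 5832 to 7309 CPM in the Control and 5917 to 6652 in LP TTX/NMDA, the astrocyte markers to 959 to 1217 and 1186 to 2041, and the microglia markers to 6.44 to 8.90 and 8.89 to 13.3. In bulk RNA, fewer cells of a type and less RNA per cell cannot be told apart. The share of reads on mitochondrially encoded genes was 0.749 to 1.04% in the Control and 1.40 to 1.87% in LP TTX/NMDA, with no overlap.

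Of 15615 genes tested between LP TTX/NMDA and the Control, 3806 (24.4%) were higher and 3568 (22.8%) were lower. The rises were larger than the falls, with a median absolute log2 fold change of 0.60 among the higher and 0.34 among the lower genes. A log2 fold change of at least 1 was reached by 661 of the higher genes, and 87 of the lower genes fell by 1 or more. Higher genes were 51.6% of all calls, and scaling by total counts alone, which raised the median of all genes from 0.02 to 0.09, made them 64.3%. The same change of scaling raised the median of all genes from 0.05 to 0.22 against 2 h Bic and from 0.05 to 0.20 against LP TTX. Of the 3806 higher genes, 1131 had been induced by Bic alone at 0.5, 1 or 2 h and 87 had been lowered by it, while 1961 were newly changed, which means that no Bic time had called them and that LP TTX/NMDA was also higher than 2 h Bic. Of the 3568 lower genes, 290 had been induced by Bic, 1032 lowered and 1948 newly changed. The remaining 627 higher and 298 lower genes were not tested at some Bic time or were not called against 2 h Bic.

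Bic alone induced 80 genes at 0.5 h (0.541% of those tested), 443 at 1 h (2.92%) and 2195 at 2 h (14.4%), and 2225 at any time, of which 2211 could be tested in LP TTX/NMDA. Each was placed by its level in LP TTX/NMDA relative to the Control. It was above or below baseline when called, near baseline when not called and with its whole 95% confidence interval within 0.32 on the log2 scale of the Control, and undecided otherwise. Above baseline were 1131 genes (51.2%), near it 501 (22.7%), below it 290 (13.1%) and undecided 289 (13.1%). Without the block, 675 were above, 236 near and 80 below. Leaving out 1 preparation gave 769 to 1361 above, 254 to 611 near and 81 to 479 below. Over all 15615 genes the same placement gave 24.4% above, 27.9% near, 22.8% below and 24.9% undecided. The induced genes were chosen with the same Control libraries that set the baseline, so these counts describe the genes and are not a test. A list that used no library of either group, the 1749 genes called higher at 2 h than at 0.5 h of Bic (11.6% of those tested), had 947 above, 417 near, 175 below and 205 undecided among 1744 tested. In LP TTX, which also shares the Control, 1294 of the induced genes were above the Control (58.8%, beside 13.3% of all genes called higher there), 538 near and 10 below.

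The larger the induction had been, the more often a gene was still above baseline. Of 98 genes with a log2 fold change over 2 after 2 h Bic, 97 were above baseline and 0 below it. Of 217 genes between 1 and 2, 185 were above and 1 was below. In contrast, of 565 genes induced by less than 0.25, 162 were above, 234 near and 138 below. Of the 323 tested genes whose log2 fold change reached 1 at any Bic time, 290 were above baseline, 4 near, 28 undecided and 1 below. Genes that Bic had already called at 1 h, before the intervention began in LP TTX/NMDA, were above baseline in 351 of 441 cases, and those not yet called at 1 h in 780 of 1770. Small inductions lie closer to the limit of a call, and the part of measurement error in the order of these groups was not tested.

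**Figure D1:**
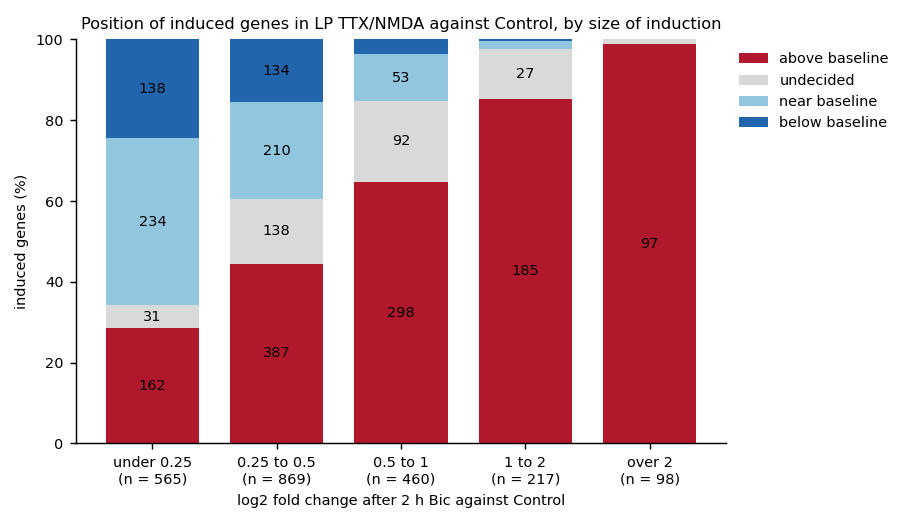
Share of Bic-induced genes (%) above, near, undecided or below the Control level in LP TTX/NMDA, in 5 groups by log2 fold change after 2 h Bic. Numbers in the bars count genes; the share above baseline goes from 162 of 565 at the smallest inductions to 97 of 98 at the largest.

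Levels at the end of the protocol were also set beside those at its start and beside uninterrupted firing, with the caution that these comparisons share the LP TTX/NMDA libraries. Genes raised by Bic and below or near the Control in LP TTX/NMDA are by their choice lower, or likely to be lower, than with Bic. Nothing is therefore read from the counts of these 2 classes against Bic. Of the 290 genes below baseline, 288 were lower than in LP TTX (28.5% of all genes), and of the 501 near baseline 343 were. The 1131 genes above baseline were chosen through their high levels in LP TTX/NMDA, so their counts describe them and are not a test. Of the 1131 genes above baseline, 714 were higher than after 1 h Bic (27.3% of all genes) and 36 lower, 381 were higher (30.9%) and 320 lower than after 2 h Bic, and 581 were higher (33.6%) and 271 lower than in LP TTX.

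Immediate early transcription factors stood far above baseline. Of the 32 factors listed, 29 were higher in LP TTX/NMDA than in the Control and 1 was lower, beside 24.4% and 22.8% of all genes. The median log2 fold change of the list was 1.61, beside 0.02 over all genes tested. Their median had been 2.75 after 2 h Bic and 2.25 in LP TTX. Of the 32, 28 were lower and 1 was higher than after 2 h Bic, while 15 were lower and 11 higher than in LP TTX. Over all genes, 25.7% were lower and 30.9% higher than after 2 h Bic, and 28.5% lower and 33.6% higher than in LP TTX. Fos (chr12:85473890-85477273, plus strand, GRCm38), the partner of Jun in the AP-1 factor, stood at 41.5, 28.9, 32.7, 45.4 and 33.5 CPM in the Control libraries of preparations 1, 3, 6, 7 and 8. In LP TTX/NMDA the same preparations had 965, 1238, 1222, 1029 and 870 CPM. All 5 treated libraries lay far above all 5 untreated ones, and the groups of 10.7% of all genes were separated in this direction. The log2 fold change of Fos was 4.89 ± 0.15 (adjusted p = 8.3e-09), and of its rise over the Control after 2 h Bic, 69.5% ± 7.72 (SD, n = 5) was present. The level differed little from LP TTX, with a log2 difference of 0.19 (adjusted p = 0.0057).

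The promoter of Fos carries short motifs known to bind CREB, and it is printed here because CREB sites are the textbook link between calcium and the genes of this group. The 250 bases before the RefSeq start of Fos, at chr12:85473640-85473889 on the plus strand of GRCm38.p6, read 5′ to 3′ with each copy of the CRE core TGACG or CGTCA in capitals, as follows.
Fos: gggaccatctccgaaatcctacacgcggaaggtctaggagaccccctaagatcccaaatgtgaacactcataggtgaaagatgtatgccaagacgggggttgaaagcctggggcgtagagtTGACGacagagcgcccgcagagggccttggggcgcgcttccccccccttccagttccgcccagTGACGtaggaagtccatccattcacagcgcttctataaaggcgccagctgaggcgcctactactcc
The copies begin 129 and 66 bases before the start.

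Fosb, a second Fos family member, had the largest log2 fold change of the named genes (5.84 ± 0.22, adjusted p = 3.9e-08). Klf4, a zinc finger factor, rose from 1.46 to 1.98 CPM in the Control to 43.7 to 92.9 CPM (log2 fold change 5.25 ± 0.10), and Npas4, a neuron-specific factor that responds to calcium influx, rose by 4.35 ± 0.18. Arc, which encodes a capsid-like protein that moves AMPA receptors out of the synaptic membrane, had 36.4, 15.9, 19.5, 16.7 and 25.8 CPM in the Control and 551, 550, 609, 460 and 638 CPM in LP TTX/NMDA. The 2 sets of libraries did not overlap, and the log2 fold change was 4.69 ± 0.15 (adjusted p = 1.4e-08). Gm43359, a transcript whose coding status is not settled, went from at most 0.225 CPM in the Control to 3.96 to 5.25 CPM (5.45 ± 0.29). Egr1, another zinc finger factor of the first wave, rose by 2.84 ± 0.19. The lower factor was Klf10, a repressor that acts downstream of TGF-β, which fell by 0.59 ± 0.12 (adjusted p = 0.0021) although LP TTX alone had raised it by 2.30 on the log2 scale.

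Some genes, named here as examples, stood higher with NMDA than with TTX alone. Ccn1 (also Cyr61), a secreted matrix protein and a classical target of SRF and its cofactors, stood at 9.62, 8.92, 6.27, 9.16 and 5.92 CPM in the Control libraries of preparations 1, 3, 6, 7 and 8. It reached 258, 273, 244, 208 and 149 CPM in LP TTX/NMDA, but only 4.87 to 10.2 CPM in LP TTX. All libraries with NMDA lay above all Control and all LP TTX libraries, while those after 1 h Bic, at 288 to 389 CPM, were higher still. The difference was a log2 fold change of 4.83 ± 0.11 over the Control (adjusted p = 7.6e-10) and of 4.80 over LP TTX (adjusted p = 3.7e-19). LP TTX itself differed from the Control by 0.02 (adjusted p = 0.91), and against 2 h Bic the difference was 0.16 (adjusted p = 0.056).

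Btg2, an antiproliferative protein that recruits the enzymes that shorten mRNA tails, showed the same order. Its Control libraries held 24.6, 19.6, 17.5, 20.3 and 24.3 CPM and its LP TTX/NMDA libraries 247, 270, 250, 229 and 270 CPM, while LP TTX gave 27.8 to 53.6 CPM. The treated libraries were all above both other groups, with a log2 fold change of 3.59 ± 0.08 over the Control and 2.71 over LP TTX (adjusted p = 1.6e-12). Klf4 was higher than in LP TTX by 2.30, Gadd45g, a stress sensor linked to DNA demethylation, by 1.54, Nr4a1, an orphan nuclear receptor, by 1.40, Arc by 1.17 and Trib1, a pseudokinase that marks proteins for degradation, by 1.75. For Trib1, LP TTX did not differ detectably from the Control (log2 difference -0.14, adjusted p = 0.36), whereas LP TTX/NMDA was above it by 1.62 ± 0.08. The promoter of Btg2 is shown because, unlike that of Fos, it holds the whole CRE, TGACGTCA, which contains the core on both strands and begins 166 bases before the RefSeq start. The sequence lies at chr1:134079156-134079405 on the minus strand of GRCm38.p6, with the CRE in capitals.
Btg2: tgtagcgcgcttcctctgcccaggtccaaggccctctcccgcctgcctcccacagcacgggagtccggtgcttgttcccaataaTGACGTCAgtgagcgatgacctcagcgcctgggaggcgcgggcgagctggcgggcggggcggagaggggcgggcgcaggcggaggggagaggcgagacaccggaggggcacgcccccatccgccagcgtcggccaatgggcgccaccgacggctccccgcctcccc

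Homer1, Inhba and Bdnf, genes of the delayed wave that encode synaptic and secreted proteins, were lower than after 2 h Bic in every library and nearer to the Control. Homer1 (chr13:93299635-93405129, plus strand), whose activity-induced short form uncouples metabotropic glutamate receptors from the postsynaptic scaffold, had 98.9, 105, 117, 109 and 115 CPM in the Control. In LP TTX/NMDA it had 141, 241, 276, 184 and 208 CPM, beside 560 to 747 CPM after 2 h Bic and 745 to 940 CPM in LP TTX. The treated libraries lay above all Control libraries and below all libraries of 2 h Bic and LP TTX. Over the Control the log2 fold change was 0.92 ± 0.10 (adjusted p = 5.7e-05), that against LP TTX was -2.01 (adjusted p = 8.2e-11), and 19.7% ± 10.7 of the rise after 2 h Bic was present. Its promoter is shown as an example of a gene with 3 CRE cores that lost most of its rise; of 2 Homer1 promoters in RefSeq this window lies at chr13:93303507-93303756 on the plus strand of GRCm38.p6.
Homer1: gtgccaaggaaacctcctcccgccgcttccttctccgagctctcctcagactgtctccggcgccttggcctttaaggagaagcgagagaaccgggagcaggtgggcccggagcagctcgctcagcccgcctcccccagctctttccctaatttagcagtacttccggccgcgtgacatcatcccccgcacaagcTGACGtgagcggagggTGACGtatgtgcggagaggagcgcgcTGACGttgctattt
The capitals mark the cores, which begin 56, 40 and 14 bases before the start.

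Inhba, which encodes the subunit of the secreted factor activin A, returned almost to the Control level. Its Control libraries had 8.29, 7.16, 7.33, 7.64 and 8.23 CPM and its LP TTX/NMDA libraries 8.76, 9.04, 13.2, 7.38 and 10.7 CPM, while 2 h Bic gave 38.3 to 50.5 and LP TTX 36.7 to 49.7 CPM. The groups overlapped, and preparation 7 was lower with treatment while the other 4 were higher. The log2 rise was 0.33 ± 0.12 (adjusted p = 0.044), a call that was lost without the preparation block, with RLE size factors, with DESeq2 and without preparation 6 or 8. Against LP TTX the difference was -2.16 (adjusted p = 2.3e-12), and 5.29% ± 5.61 of the 2 h rise was present.

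Bdnf, the neurotrophin of activity-dependent plasticity, had 82.6, 101, 114, 142 and 95.6 CPM in the Control and 99.4, 128, 149, 126 and 147 CPM in LP TTX/NMDA. These ranges overlapped too, and preparation 7 again went the other way. The log2 rise of 0.30 ± 0.10 (adjusted p = 0.028) was likewise lost without the block and without preparation 1, 6 or 8, whereas the difference of -1.30 from LP TTX had an adjusted p of 8.2e-12. Frmd6, a FERM domain protein, kept 13.8% ± 2.24 of its 2 h rise, with 8.70 to 10.4 CPM in the Control and 14.3 to 16.9 CPM in LP TTX/NMDA, and Csrnp1, a nuclear factor of the immediate early group, kept 16.7% ± 2.64. Both were above baseline with no overlap of the groups, by 0.75 ± 0.08 and 1.46 ± 0.08 on the log2 scale. Ankrd33b, an ankyrin repeat protein, was lower in all 5 preparations but undecided, with 19.1 to 38.2 CPM in the Control, 19.1 to 31.5 CPM in LP TTX/NMDA and a log2 fold change of -0.20 ± 0.08 (adjusted p = 0.059). It was called lower with the block and no filter on low counts, in the joint fit and without preparation 3.

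Of the 31 listed synaptic, secreted and signalling products of the delayed response, 27 were higher than in the Control, 2 lower and 2 not called, with a median log2 fold change of 0.74. Over all genes 24.4% were higher and 22.8% lower. In the same list 22 were lower and 4 higher than after 2 h Bic, where the median was 1.74, and 21 were lower and 8 higher than in LP TTX, where it was 1.40. Over all genes 25.7% were lower than after 2 h Bic and 28.5% lower than in LP TTX. The lower genes were Nptx1, a secreted pentraxin that gathers AMPA receptors (-1.16 ± 0.11, adjusted p = 2.2e-05), and Lingo1, an inhibitor of myelination and axon growth (-0.70), and without preparation 3 there were 4. Among the 30 listed proteins that limit the signals that induce them, 23 were higher and 3 lower, beside 24.4% and 22.8% of all genes. The number lower was 1 without preparation 1 or 7 and 5 without preparation 3, and the median of this list was 0.99. Dusp1, the phosphatase of the kinases p38 and JNK, stood 3.29 above the Control on the log2 scale, close to its 3.26 after 2 h Bic. Dusp2, a phosphatase of the same family measured at about 1 CPM, was the lowest of them (-0.48 ± 0.18, adjusted p = 0.046), a call lost without the block and under most other settings, and Dusp8, of the same family, and Spred2, an inhibitor of Ras signalling, fell by 0.34 and 0.26.

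The activity-regulated inhibitors of death are a group of activity-induced genes known to protect neurons. Of 9 members 7 could be tested, and all 7 were higher than in the Control, with a median log2 fold change of 3.66. Npas4 led with 4.35 ± 0.18, followed by Gadd45g (4.02 ± 0.13), Nr4a1 (3.67), Atf3, a stress-induced repressor (3.66), Btg2 and Gadd45b, the sibling of Gadd45g (3.55), while Inhba was last with 0.33. Against 2 h Bic, 6 of the 7 were lower, beside 25.7% of all genes. Against LP TTX, 4 were higher (Gadd45g, Nr4a1, Btg2 and Npas4) and 3 lower (Inhba, Atf3 and Gadd45b), beside 33.6% and 28.5% of all genes. Serpinb2, an inhibitor of serine proteases, and Ifi202b, an interferon-inducible DNA-binding protein, were too low to be tested, with at most 1.76 and 0.141 CPM in any of the 10 libraries.

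**Figure D2:**
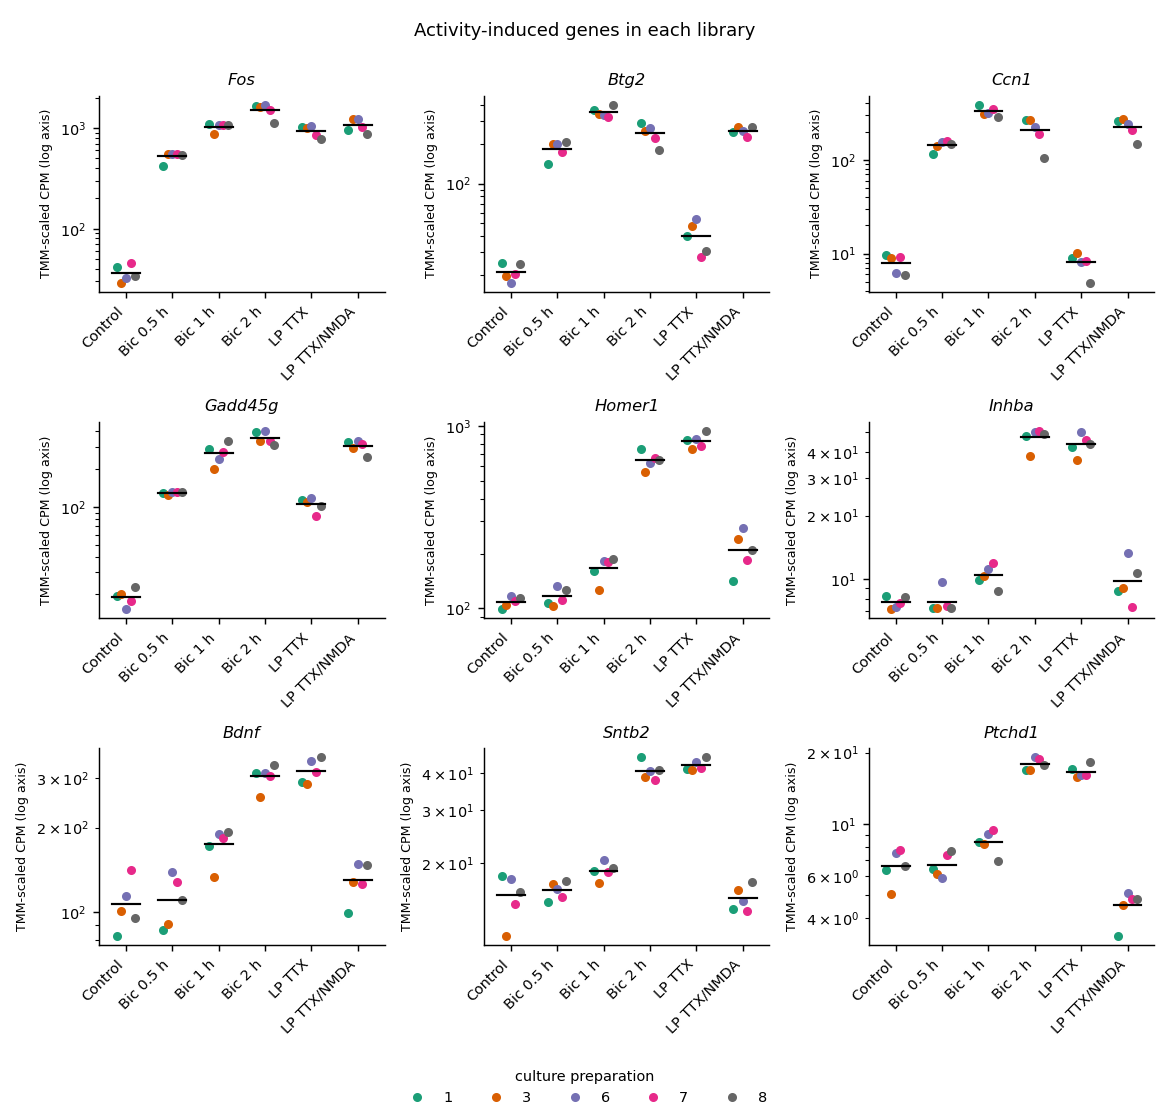
TMM-scaled CPM (log axis) of 9 Bic-induced genes in every library of 6 conditions, with points coloured by culture preparation and bars at the mean of 5. Btg2 and Ccn1 are high with LP TTX/NMDA and low with LP TTX, Homer1, Inhba and Bdnf show the opposite order, Sntb2 lies within the Control range and Ptchd1 at or under it.

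The strongly induced genes that returned to baseline were 4, named by their size of induction. Their number was 1 to 10 when 1 preparation was left out, 7 with RLE and 2 with upper-quartile factors. Sntb2 (chr8:106935750-107019714, plus strand), a syntrophin that links membrane proteins to the dystrophin complex, had 18.1, 11.4, 17.7, 14.6 and 16 CPM in the Control. In LP TTX/NMDA it had 14, 16.2, 14.9, 13.8 and 17.2 CPM, inside the Control range in all 5 libraries, although 2 h Bic had brought it to 38.1 to 45.3 CPM. The log2 fold change was 0.00 with a 95% confidence interval from -0.25 to 0.25, and -1.48 against LP TTX (adjusted p = 3.9e-12). Cpeb3, a protein that controls translation at synapses, differed from the Control by 0.06 ± 0.12, Ranbp2, a nucleoporin of the cytoplasmic side of the pore, by 0.00 ± 0.09 and Zswim6, a zinc finger protein, by -0.06 ± 0.09. Without preparation 3, Zswim6 was called lower (-0.17, adjusted p = 0.016). After 2 h Bic, Cpeb3, Ranbp2 and Zswim6 had stood 1.12, 1.11 and 1.02 above the Control on the log2 scale, and in LP TTX 1.6, 1.53 and 1.58. Srf, the serum response factor itself and chosen for mention after its values were seen, also returned, with 29.2 to 37.3 CPM in the Control, 29.4 to 32.7 CPM in LP TTX/NMDA and 57.2 to 67.3 CPM after 2 h Bic. Pcsk1, the convertase that cuts prohormones and likewise chosen afterwards, had 73.1 ± 13.6 CPM in the Control and 80.6 ± 15.1 CPM in LP TTX/NMDA (SD, n = 5), against 182 to 237 CPM after 2 h Bic. Its interval, from -0.09 to 0.39, left it undecided.

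Among genes with an induction of at least 1 on the log2 scale, Ptchd1 was the 1 found below baseline, and other settings found 1 to 3. Ptchd1 (chrX:155573455-155623814, minus strand), a patched-related membrane protein found at synapses, had 6.35, 5.05, 7.53, 7.74 and 6.66 CPM in the Control libraries. It had 3.37, 4.54, 5.09, 4.83 and 4.81 CPM in LP TTX/NMDA, after 16.9 to 19.1 CPM with 2 h Bic and 15.7 to 18.2 CPM with LP TTX. Every preparation fell, and of the treated libraries only that of preparation 6 reached the lowest Control library. The log2 fold change was -0.53 ± 0.12 (adjusted p = 0.0037), -1.89 against LP TTX and -1.99 against 2 h Bic. In the short protocol, on libraries not used for this choice, Ptchd1 was lower with NMDA than with TTX alone by 0.56 on the log2 scale (adjusted p = 0.0049). Its promoter is shown for contrast with the 3 above, since the window at chrX:155623328-155623577 on the minus strand holds none of the motifs searched.
Ptchd1: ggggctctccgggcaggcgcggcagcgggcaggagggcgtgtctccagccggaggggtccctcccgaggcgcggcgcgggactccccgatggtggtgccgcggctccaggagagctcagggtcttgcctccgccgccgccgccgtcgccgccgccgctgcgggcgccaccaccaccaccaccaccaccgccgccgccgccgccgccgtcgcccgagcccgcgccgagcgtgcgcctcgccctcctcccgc

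The 290 induced genes below baseline were otherwise weakly induced ones, with a median log2 fold change of 0.26 after 2 h Bic, 0.19 in LP TTX and -0.33 in LP TTX/NMDA. The following examples were chosen after their values were seen and do not stand for the whole set. Slit3, a secreted guidance cue, had 140, 58.2, 126, 122 and 101 CPM in the Control and 32, 31.6, 41.4, 32.7 and 49.1 CPM in LP TTX/NMDA. Kcna1, a voltage-gated potassium channel that limits firing, had 112, 45.7, 107, 96.1 and 83.2 CPM and then 28.3, 37.8, 48.8, 34.3 and 36.8 CPM. For both genes the Control library of preparation 3 was the lowest of its group, and for Kcna1 it lay within the treated range. The log2 fold changes were -1.50 ± 0.16 for Slit3 and -1.21 ± 0.18 for Kcna1, and both were lower with NMDA than without it in the short protocol as well (-0.95 and -1.09). Slc8a1, a sodium-calcium exchanger, fell by 1.01 ± 0.19, Epha6, an ephrin receptor, by 0.94 ± 0.16, and Atp2b3, a pump that carries calcium out of the cell, by 0.91 ± 0.11. Smaller falls were seen for Shank3, a master scaffold of the postsynaptic density (0.53 ± 0.09), for Enc1, an actin-binding protein of neurons (0.55 ± 0.07), and for Ryr2, a calcium release channel (0.38 ± 0.13). The call of Ryr2 was lost without preparation 1, 6, 7 or 8. The number of induced genes below baseline depended on single preparations, with 479 without preparation 3 and 112, 81 and 140 without preparation 6, 7 and 8, and it was 80 without the block.

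The loci of the microRNAs miR-132 and miR-212, which CREB is known to drive, were induced and partly retained. These values count poly-A RNA reads on the hairpin loci and therefore precursor RNA, not the mature microRNAs. Mir132 had 0.157 to 0.691 CPM in the Control and 1.65 to 3.18 CPM in LP TTX/NMDA (log2 fold change 2.53 ± 0.27, adjusted p = 5.3e-05), and Mir212 had 0.105 to 0.671 and 1.62 to 2.64 CPM (2.59 ± 0.25). Both were above the Control without overlap and below 2 h Bic by 1.83 and 1.94 on the log2 scale. They lie at chr11:75173682-75173747 and chr11:75173388-75173478, inside the span of the long noncoding gene 1700016P03Rik on the same strand. That gene went from 3.20 to 4.05 CPM in the Control to 74.3 to 86.7 CPM in LP TTX/NMDA, above its 44.7 to 68.8 CPM after 2 h Bic in every library (log2 difference 0.50, adjusted p = 0.00025). The counting left out reads that overlapped several genes, and its part in the different order of host and hairpins was not tested. The main mature products are printed because they share the seed, bases 2 to 8 in capitals, and so belong to 1 family of targets.
mmu-miR-132-3p: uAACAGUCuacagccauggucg
mmu-miR-212-3p: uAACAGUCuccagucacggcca

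Newly changed genes were next examined, that is, genes that no Bic time had called and that LP TTX/NMDA moved away from both the Control and 2 h Bic in the same direction. The 1961 higher genes had a median log2 fold change of 0.55, and 169 reached 1. The 1948 lower genes had a median of -0.34, and 56 fell by 1 or more. Because the choice used the Control, these values describe the genes.

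The protein-coding genes with the largest rises were expressed at low levels. Il1r1, Tlr4, Lilr4b, Il1rl2 and Svep1 had Control means under 1 CPM and reached the minimum mean of 1 CPM set for naming through the LP TTX/NMDA libraries, so that genes of this level could be named when they rose and not when they fell. Il1r1, the receptor of interleukin-1, had 1.15, 0.901, 0.886, 0.987 and 0.524 CPM in the Control and 2.55, 3.10, 2.83, 2.87 and 1.70 CPM in LP TTX/NMDA. Tlr4, the receptor of bacterial lipopolysaccharide, had 0.618, 0.946, 0.443, 0.533 and 0.419 CPM and then 1.74, 1.69, 1.41, 1.41 and 1.24 CPM. Neither pair of groups overlapped, and the log2 fold changes were 1.59 ± 0.15 and 1.33 ± 0.19. Lilr4b, an inhibitory leukocyte receptor, and Il1rl2, the receptor of interleukin-36, rose by 1.46 ± 0.16 and 1.37 ± 0.18 from means of 0.847 and 0.576 CPM. The other leading genes were Svep1, an extracellular adhesion protein (1.53 ± 0.17), Igf2bp3, an RNA-binding protein of fetal tissue (1.34 ± 0.14), and Ahnak, a giant scaffold protein under the cell membrane (1.33 ± 0.10). All 7 had at most 16.3 CPM in these 10 libraries, and the summed markers of astrocytes, oligodendrocyte lineage, microglia and endothelial cells and fibroblasts were also higher. The part of these cells in the rises was not tested. None of the 7 was called in the short protocol, where the differences between SP TTX/NMDA and SP TTX lay from 0.01 to 0.27 on the log2 scale.

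Transcripts not annotated as protein coding rose further. 9330162G02Rik (chr7:59223847-59254788, minus strand) had 7.68, 20.4, 11.0, 13.6 and 16.8 CPM in the Control and 50.9, 60.0, 45.6, 45.8 and 54.1 CPM in LP TTX/NMDA. All treated libraries were above all Control and all LP TTX libraries, with a log2 fold change of 1.91 ± 0.13 (adjusted p = 3.9e-06). Gm44562, its neighbour on the same strand, rose by 2.26 ± 0.15 and Mir99ahg, the host of a microRNA cluster, by 1.59 ± 0.09. In the short protocol the 3 were called higher as well, by 0.64, 1.22 and 0.62. The leading falls of such transcripts were those of 5330416C01Rik (-2.05 ± 0.26), Gm10754 (-1.63 ± 0.22) and 4921539H07Rik (-1.41 ± 0.25), all with at most 3.85 CPM in these libraries.

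Newly lower genes included receptors and channels that Bic had left alone. Dcc, the receptor of the guidance cue netrin, had 49.3, 18.1, 46, 39.5 and 33.9 CPM in the Control and 8.26, 9.31, 11.0, 9.30 and 12 CPM in LP TTX/NMDA. The treated libraries were all lower, the Control library of preparation 3 stood apart from the others, and neither 2 h Bic nor LP TTX differed detectably from the Control (log2 differences 0.12 and 0.19). The log2 fold change was -1.82 ± 0.19 (adjusted p = 4.5e-05), and -2.03 against LP TTX (adjusted p = 5.1e-12). Adamts3, a protease of the extracellular matrix, went from 27.7 to 51.0 CPM to 9.39 to 14.2 CPM (-1.72 ± 0.16), and Il16, whose neuronal form is a PDZ scaffold, from 15.4 to 27.2 CPM to 5.70 to 8.63 CPM (-1.37 ± 0.13). Sstr4, a somatostatin receptor of hippocampal neurons, had 9.35, 3.83, 7.02, 4.62 and 8.54 CPM and then 3.29, 2.21, 2.05, 1.23 and 3.38 CPM (-1.40 ± 0.15). Its groups did not overlap, as was the case in this direction for 11.4% of all genes. Chrm5, a muscarinic receptor (-1.74 ± 0.26), Fcgbp, an IgG-binding protein (-1.65 ± 0.17), Kcng3, a potassium channel subunit (-1.28 ± 0.26), and Syt10, a vesicle calcium sensor (-1.27 ± 0.22), had at most 3.68 CPM in these libraries. In LP TTX/NMDA, Chrm5 and Fcgbp averaged 0.714 and 0.493 CPM, and they reached the minimum mean of 1 CPM for naming through the Control libraries. All 8 of these newly lower genes were called lower in the short protocol too, by 0.45 to 1.35.

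**Figure D3:**
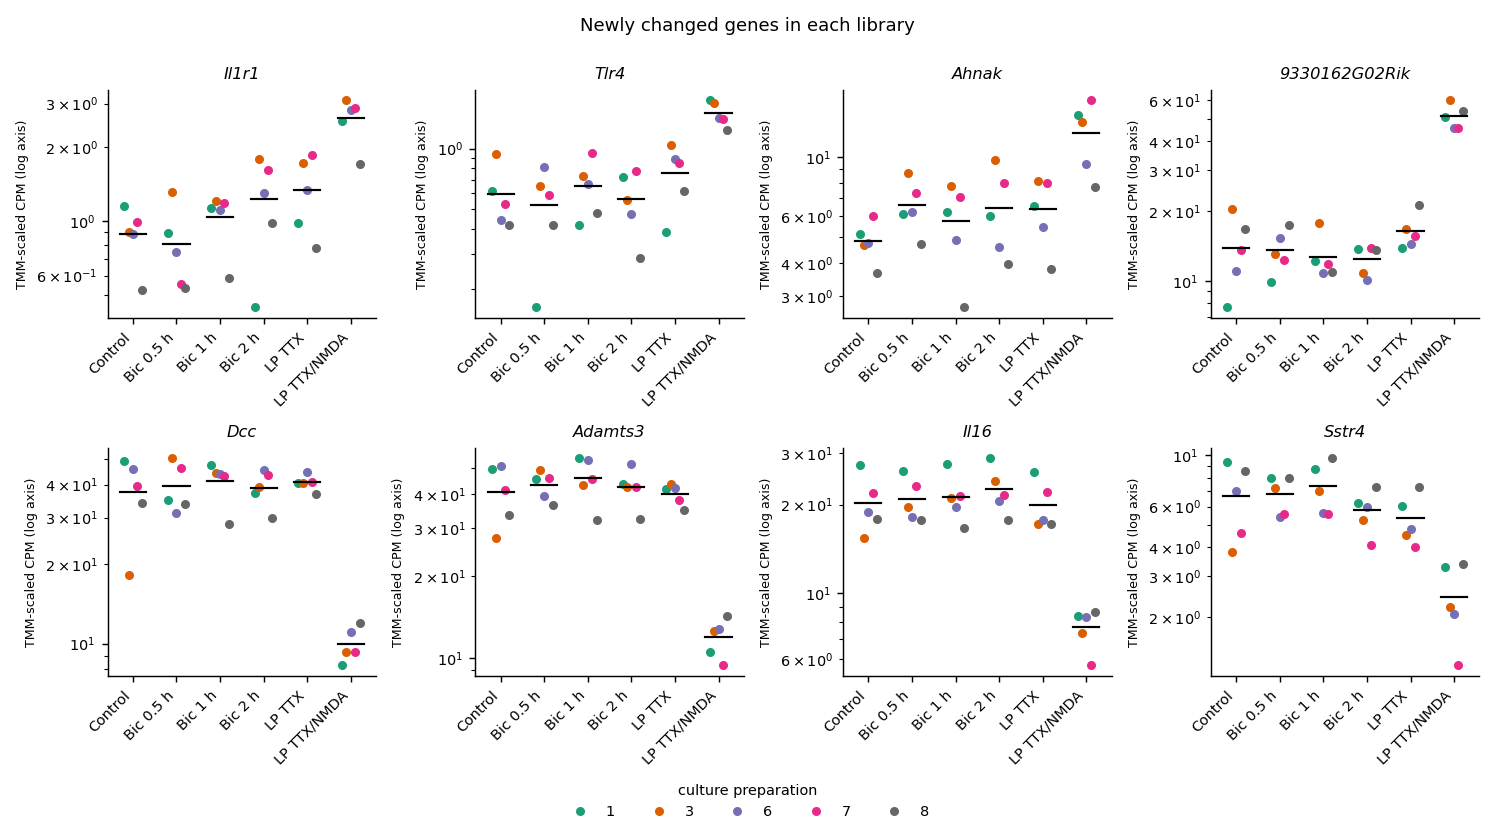
TMM-scaled CPM (log axis) of 4 newly higher (top) and 4 newly lower genes (bottom) in every library of 6 conditions, with points coloured by culture preparation and bars at the mean of 5. The LP TTX/NMDA libraries stand apart from the others, except that Il1r1 and Ahnak overlap with other treatments, and the Control library of preparation 3 is low for Dcc.

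The short protocol gave a readout on libraries that took no part in choosing the newly changed genes, although they came from the same preparations. Between SP TTX/NMDA and SP TTX, 5.93% of all genes were called higher and 10.3% lower. Among the 1961 newly higher genes 361 (18.4%) were higher there and 2 lower, and 1801 had a positive log2 fold change. Among the 1948 newly lower genes 845 (43.4%) were lower and 1 was higher, and 84 had a positive log2 fold change. The corresponding shares over the genes that no Bic time had called were 5.39% higher and 9.25% lower. For TBOA, 3.50% of all genes were called higher and 8.74% lower than in LP TTX. Of the genes that no Bic time had called, 2.47% were higher and 4.99% lower with TBOA. Of the newly higher genes 89 (4.54%) were higher with TBOA and 23 lower, and of the newly lower genes 199 (10.2%) were lower and 25 higher. Against LP TTX, 94% of the newly higher genes were higher and 91.3% of the newly lower genes lower. That comparison shares the LP TTX/NMDA libraries with the choice, so these 2 shares are not a test. Over all genes the shares were 33.6% and 28.5%, and over genes that no Bic time had called 35.2% and 28.1%.

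Genes for receptors, channels and scaffolds of neurons were lower more often than higher. Of 31 pore-forming subunits of voltage-gated channels, 16 fell, 1 rose and 14 were not called, with a median log2 fold change of -0.31, beside 22.8% lower and 24.4% higher over all genes. Without preparation 3, 25 of the channels were lower. Kcna4, an A-type potassium channel, fell by 1.25 ± 0.09, Kcnq5 by 0.94, Kcnd2 by 0.77 and the sodium channel gene Scn2a by 0.68, while Kcnc2, a fast delayed rectifier, was higher by 0.25 ± 0.07, with overlap of the groups and a call lost without preparation 8. Of 23 proteins of the postsynaptic density, 14 fell and 1, the scaffold Dlg1, was higher by 0.17, a call lost under most other settings, with a median of -0.30. Camk2a, the kinase of synaptic potentiation, had 1326, 738, 1180, 989 and 1096 CPM in the Control and 535, 438, 511, 433 and 660 CPM in LP TTX/NMDA (-1.03 ± 0.09, adjusted p = 2.0e-05). Its groups were separate in every library, and Nlgn1, a neuroligin of excitatory synapses, fell by 0.96. Newly changed genes made up 11 of the 16 channels that fell and 13 of the 14 scaffold genes, beside 1948 of all 3568 lower genes.

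Of 22 glutamate receptor subunits tested, 11 fell and 5 rose. Grm7, a presynaptic metabotropic receptor, fell by 0.78 ± 0.07, and the NMDA receptor subunits Grin2a, Grin2b and Grin1 fell by 0.77, 0.77 and 0.41, while Grin2c, a subunit typical of cerebellum and glia, rose by 0.85 ± 0.22 at about 1 CPM. The other risers were Grik1, a kainate receptor subunit (0.54), Grm3, a metabotropic receptor also found on astrocytes (0.52), Gria4, an AMPA receptor subunit (0.35), and Grin2d, an NMDA receptor subunit (0.29). Of 13 GABA type A receptor subunits, 7 fell, led by Gabrb1 (0.82 ± 0.09), and Gabrg1 and Gabrg3 rose by 0.42 and 0.37. The medians of these lists were -0.18 and -0.26. Of 10 neuron markers 5 fell and 2 rose, with a median of -0.16, and without the block 3 were lower. Slc17a7, the vesicular glutamate transporter of excitatory neurons, fell by 0.81 and Prox1, a marker of dentate granule cells, by 0.91 ± 0.15, whereas Gad1 and Gad2, the enzymes that make GABA, rose by 0.47 and 0.49.

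Lists of stress, death and metabolic genes are given beside the 24.4% higher and 22.8% lower of all genes. Of 18 redox genes, 11 rose and 1 fell, with a median of 0.35. Nfe2l2, which encodes the redox regulator Nrf2, rose by 0.99 ± 0.11, its target Slc7a11, a cystine transporter, by 0.98 and Osgin1, an oxidative stress response gene, by 1.09 ± 0.16, while Keap1, the inhibitor of Nrf2, fell by 0.33 ± 0.05. Of 18 genes of the integrated and endoplasmic reticulum stress responses 8 rose (5 without the block) and 3 fell, with Ppp1r15a, a phosphatase subunit that restores translation, at 1.13 ± 0.08 and Vldlr, a lipoprotein receptor, at -0.42 ± 0.09. Of 12 heat shock genes 5 rose and 1 fell, but 2 were higher without preparation 7 and 3 without preparation 1 or 6, without the block or with DESeq2. The co-chaperones Bag3 and Dnajb1 were at 1.73 ± 0.12 and 0.76 and Hsp90ab1, a main cytosolic chaperone, at -0.13 ± 0.05, a call lost without the block and under most other settings. Of 24 FoxO-linked and pro-death genes 7 rose and 6 fell, with a median of 0.09, shares near those of all genes. Bcl2l11, which encodes the BH3 protein Bim, rose by 1.28 ± 0.10 and Fbxo32, a ubiquitin ligase of muscle atrophy, by 1.08, while Hrk, another BH3 gene, fell by 0.59 ± 0.06. Of 21 genes of glucose use and hypoxia 7 rose and 4 fell (2 without preparation 1, 6, 7 or 8), from Slc2a1, the glucose transporter of brain endothelium and glia (0.98 ± 0.10), to Aldoa, an aldolase at about 1 CPM (-0.44 ± 0.16), whose call was lost under most other settings. Of 14 actin cytoskeleton genes 7 rose, with Ccn1 far above the others and Tagln, a smooth muscle actin-binding protein, next at 0.74, and 3 fell, led by Fhl2, a LIM protein (0.43 ± 0.08). Without preparation 7, 4 of this list were higher. Of 13 clock genes 3 rose and 3 fell, again near the shares of all genes, from Per1 (1.17 ± 0.10) to Tef (-0.41 ± 0.05). Ppp1r1b, which encodes the dopamine-regulated phosphatase inhibitor DARPP-32, was also named in the study. It fell by 0.30 ± 0.10 (adjusted p = 0.028), a call lost without the block, with total counts or upper-quartile factors, and without preparation 3, 6, 7 or 8.

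**Figure D4:**
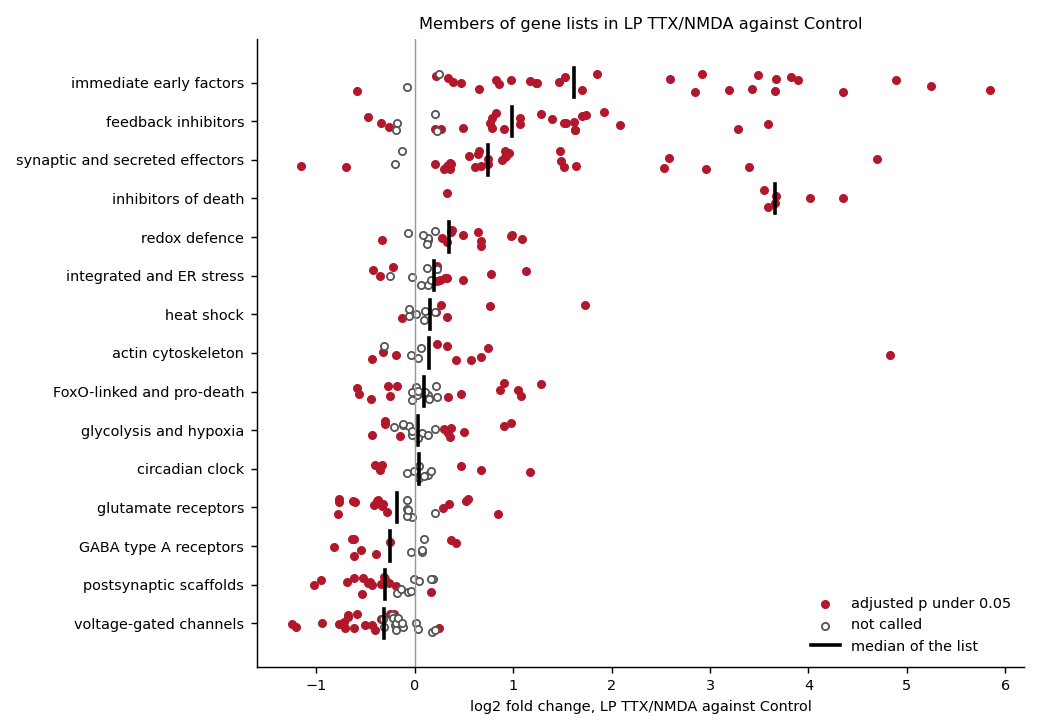
Log2 fold change between LP TTX/NMDA and the Control for every tested member of 15 gene lists. Filled points passed an adjusted p under 0.05, open points did not, and bars mark list medians, which run from 3.66 for the inhibitors of death to -0.31 for the voltage-gated channels.

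Mitochondrially encoded mRNAs rose as a group. All 7 that could be tested were higher, from mt-Nd5 (0.30 ± 0.07) to mt-Nd4 (1.14 ± 0.06), both subunits of complex I, and 6 of the 13 were listed at 0 in every library. mt-Nd4 had 450, 514, 505, 558 and 389 CPM in the Control and 1046, 1038, 1291, 1122 and 806 CPM in LP TTX/NMDA. Their sum was 6025 to 8179 CPM in the Control, 5638 to 7703 CPM in LP TTX and 9511 to 13680 CPM in LP TTX/NMDA, with the last group apart from both others.

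Markers of other cell types rose as well. The marker counts are given beside the 24.4% higher and 22.8% lower of all genes. Of 8 astrocyte markers, 7 were higher and 0 lower, with a median of 0.97. They were led by Sox9, a factor of glial identity (2.25 ± 0.14), which Bic alone had also raised, and included Slc1a3, Aqp4, Gja1 and Gfap (1.13, 1.08, 1.05 and 0.86), while Slc1a2, the main glial glutamate transporter, was at -0.22 ± 0.09 (adjusted p = 0.062). Slc1a2 was called lower with DESeq2, in the joint fit, with the block and no filter, and without preparation 3. Of 6 tested markers of the oligodendrocyte lineage 5 were higher, led by Cspg4 (1.08 ± 0.13), of 6 microglia markers 3, led by Cx3cr1 (0.96 ± 0.30), and of 6 markers of endothelial cells and fibroblasts 4, led by Col1a1 (1.11 ± 0.09). Mbp, Csf1r and Kdr of these lists were not called, at 0.16, 0.09 and -0.16. The call of Cx3cr1, at under 1 CPM, was lost without the block, with DESeq2 and without preparation 1 or 7. The part of cell composition in the changes of neuronal genes was not tested.

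**Figure D5:**
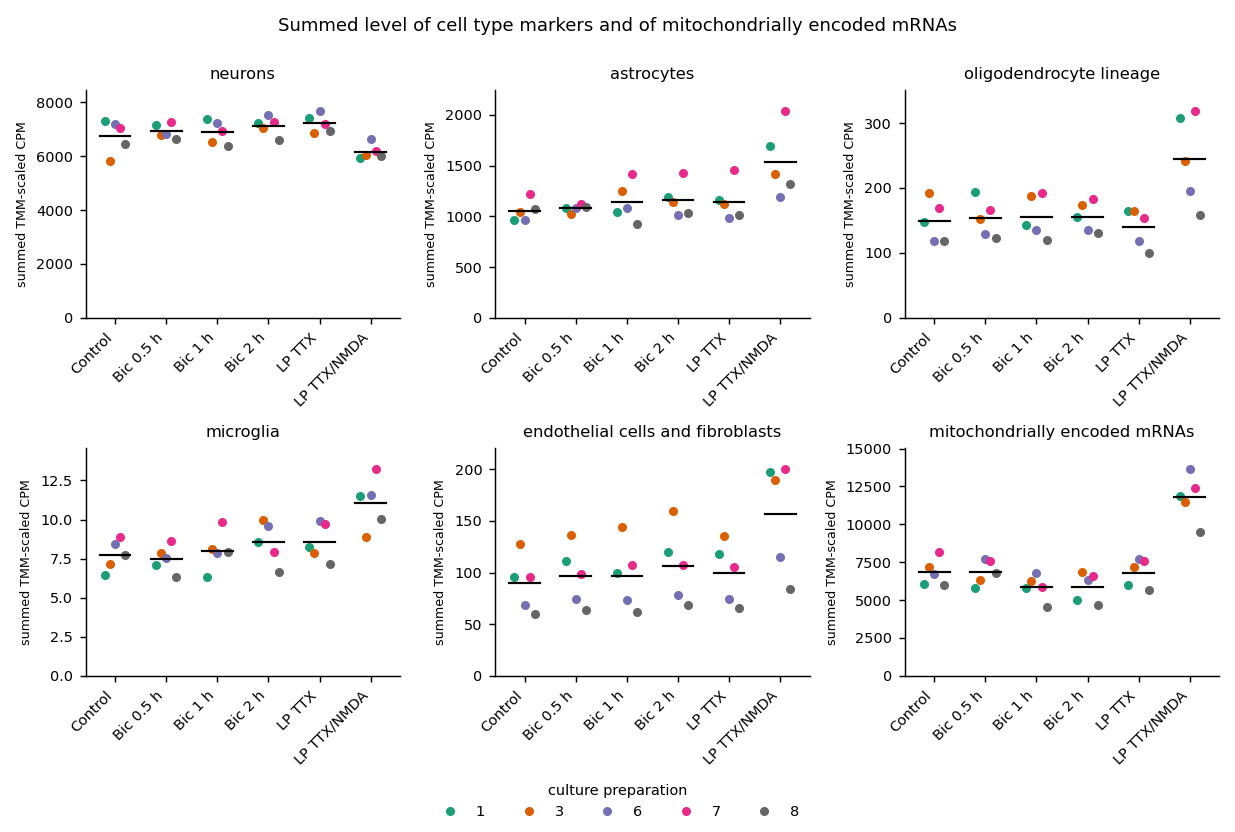
Summed TMM-scaled CPM of 5 cell type marker lists and of the mitochondrially encoded mRNAs in every library of 6 conditions, with points coloured by culture preparation, bars at the mean of 5 and axes from 0. The mitochondrial sum is highest in all 5 LP TTX/NMDA libraries, and the sums for glia and vascular cells are shifted upward with overlap between preparations.

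Gene length, which no rule had used, differed between these classes. The median span from first to last base was 23.2 kb over all genes tested, 19.2 kb for induced genes above baseline, 31.4 kb for those near it and 56.7 kb for those below it. Newly higher genes had a median span of 19.6 kb and newly lower genes 53.2 kb, and 31.9% of the newly lower genes were longer than 100 kb, beside 15% of all. The newly lower genes also had higher levels, with a median of 84.1 CPM against 19.3 over all genes tested, and the part of level in which genes were called was not tested. These values describe genes, and genes are not replicates of a condition.

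The promoter windows of the induced genes, 250 bases before to 50 after each RefSeq start, were searched on both strands for the CRE (TGACGTCA), its core (TGACG), an AP-1 site (TGANTCA) and the CArG box to which SRF binds. The whole CRE was found in 2.95% of the promoters of the genes tested, in 4.71% for the induced genes above baseline, in 4.23% for those near it and in 5.69% for those below it. The core, which the CRE contains, was in 29.6% over all genes tested, 35% for induced genes above baseline, 42.8% near and 28.8% below. The CArG box was in 1.33%, 1.57%, 2.21% and 1.07% of the same sets, and the AP-1 site in 5.09%, 6.00%, 5.51% and 3.56%. For the subset above baseline that Bic had raised by at least 1 on the log2 scale, whose counterparts near and below were too few to set beside it, the shares were 7.57% for the CRE, 42.6% for the core and 2.79% for the CArG box. For newly higher and newly lower genes the CRE shares were 2.52% and 2.51%. Of the genes tested 11499 of 15615 matched a RefSeq promoter by symbol, and a match is a run of letters, not a shown binding site.

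Genes that Bic had lowered were also followed. Of 2293 tested, 1035 (45.1%) were below the Control in LP TTX/NMDA, 770 near it, 401 undecided and 87 above it. The Control was again shared by both comparisons. The shares of all genes tested were 22.8% below, 27.9% near, 24.9% undecided and 24.4% above. The number below was 599 without the block and the filter, and 635 to 1453 when single preparations were left out. Mex3b, an RNA-binding ubiquitin ligase chosen after its values were seen, was an induced gene that went the other way in LP TTX. It had 26.9 to 32.1 CPM in the Control, 17 to 21.8 CPM in LP TTX and 23.3 to 35.6 CPM in LP TTX/NMDA, where its log2 difference from the Control was -0.05 ± 0.09.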

How the data were processed

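The data were counts of reads per gene for 45 RNA-seq libraries of mouse hippocampal cultures, of which 30 were used in the main comparisons and the others in the 2 readouts on TBOA and the short protocol. The deposited counts were made by the authors from poly-A selected libraries with bcl2fastq 2.20.0.422, STAR 2.5.4b and featureCounts 1.6.5, per the labels and the study's methods, on Ensembl release 94 of GRCm38, counted by strand, with reads that overlapped several genes left out. Gene names, positions and biotypes were taken here from GENCODE M21 (Ensembl 96), which matched 54409 of 54532 gene IDs. No replicates had been pooled, and no normalization had been applied.

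Counts were scaled by TMM and tested with edgeR 4.0.16 (R 4.3.3, limma 3.58.1) by the quasi-likelihood test, after filterByExpr, with the culture preparation as a block and each comparison fitted on its own 10 libraries. P-values were adjusted by Benjamini-Hochberg over all genes tested. The labels number the culture preparations, so the numbers pair the libraries, and same-numbered Control and LP TTX/NMDA libraries deviated together from their group means (r from 0.138 to 0.630 in the 5 pairs, mean 0.404, against a mean of -0.102 for different numbers), although the Control library of preparation 3 correlated better with those of preparations 1 and 7 (0.267 and 0.187) than with its own. The share of induction present was (LP TTX/NMDA − Control)/(2 h Bic − Control) in CPM for each preparation. The genes and lists were chosen with earlier results of these data known. Genes named in the text were those the study discusses, the leading members of each class by size of change with a mean of at least 1 CPM (at most 8 per direction for newly changed genes, at most 6 near baseline and 3 per direction for transcripts not coding for protein), the highest and lowest members of each list, further list members added as examples after their values were seen, and other genes chosen afterwards, which are marked so. Of the newly higher genes this rule named, 1 is not reported here. Members above or below baseline and newly changed genes named by size also had the same sign in all 5 preparations. On simulated counts with 200 changed genes, the fit of LP TTX/NMDA against the Control recovered 74.34% of changes of 0.5 and 94.38% of changes of 1 on the log2 scale, with 6.19% false calls. The simulation raised as many genes as it lowered and left the others unchanged, whereas 7374 of 15615 genes were called in the data. Its figures therefore need not hold for this comparison. The alternatives were no block, no filter on low counts, RLE, upper-quartile or total-count scaling, DESeq2 1.42.0, 1 joint fit of 30 libraries, a band of 0.5 around baseline and leaving out each preparation. Promoters and mature microRNAs are RefSeq sequences on GRCm38.p6. Reads were not sorted by molecular identifiers, and depth differed by up to 4.465 times within the Control.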

Additional observations from a re-analysis of the deposited data

Results flagged for a closer look

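Of 212 groups of 5 libraries, 11 (5.19%) had a highest or lowest library set far from the others, where chance gives about 1 in 20. The library of preparation 8 was highest for Atf3 in the Control, with 28.8 CPM against 7.29 for the next, and for Serpinb2 in the Control (0.577 CPM) and in LP TTX/NMDA (1.76 CPM). The library of preparation 1 was highest for Fcgbp in the Control (2.21 CPM) and in LP TTX/NMDA (0.764 CPM) and for Tef in LP TTX/NMDA (150.0 CPM), and lowest for Srf in LP TTX/NMDA (29.4 CPM). The Control library of preparation 3 was highest for Slc2a1 (29.6 CPM) and lowest for Cspg4 (1.31 CPM). The library of preparation 6 was highest for Prox1 in the Control (67.2 CPM) and for Ifi202b in LP TTX/NMDA (0.141 CPM, with 0 in the others). The cause was not tested.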

How the results depend on the processing

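Of the counts recomputed under other settings, 340 stayed within 1.5 times the value reported and 97 did not. For single genes 1355 values kept direction and call, 60 lost the call, 10 gained it, and 17 changed sign. The cause of these changes was not tested.

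Without the replicate block, on the same genes, the counts were 254 higher and 58 lower at 1 h Bic, 1273 higher at 2 h Bic, 1158 higher at 2 h than at 0.5 h, and 1285 higher and 901 lower in LP TTX. Induced genes were then above baseline in 675 cases, near in 236 and below in 80, with 43 strongly induced genes undecided, and genes rising from 0.5 to 2 h in 586, 235 and 74. Without the block and the filter, the counts were 60 lower at 1 h, 1311 and 1478 higher and lower at 2 h, 769 lower in LP TTX, 599 genes lowered by Bic below baseline, 708, 195 and 79 induced genes above, near and below, 97 strong genes undecided, and 232, 333 and 68 rising genes near, undecided and below. With the block and no filter, Bic gave 147 and 18 at 0.5 h and 806 and 409 at 1 h, induced genes below were 445, and strong genes below and undecided 3 and 79.

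With total counts alone, lower genes were 336 at 1 h, 4033 at 2 h (1315 higher), 3407 at 2 h against 0.5 h (1055 higher) and 3413 in LP TTX. LP TTX/NMDA was then higher than 2 h Bic for 8077 genes and lower for 2326, and lower than LP TTX for 2870, newly lower genes were 1118, induced genes below, near and undecided 81, 224 and 138, strong genes undecided 16, and rising genes 52, 162 and 115. With upper-quartile factors, lower genes were 311 at 1 h and 3018 in LP TTX, induced genes below, near and undecided 140, 294 and 180, strong genes near 2, and rising genes below and near 92 and 268. The joint fit gave 5 lower genes at 0.5 h, 334 at 1 h, 134 rising genes undecided, 528 induced genes below and 2 strong genes below. RLE gave 7 strong genes near, and a band of 0.5 left 105 induced genes undecided.

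Leaving out 1 preparation gave 0 to 2 lower genes at 0.5 h Bic, 274 to 777 higher and 39 to 564 lower at 1 h, 1436 to 2564 higher at 2 h and 875 to 2019 lower in LP TTX. Below baseline were 635 to 1453 of the genes lowered by Bic, 81 to 479 induced genes, 71 to 173 rising genes and 1 to 3 strong genes. Near baseline were 254 to 611, 231 to 369 and 1 to 10 of the last 3 lists, and undecided 174 to 398, 101 to 350 and 18 to 46.

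Genes near baseline changed sign between settings. Zswim6 was also called lower than the Control without preparation 3, at -0.17 (adjusted p = 0.016). With total counts alone Mex3b was at 0.021, Ranbp2 at 0.070 and Zswim6 at 0.0059, and with upper-quartile factors Ranbp2 was at 0.034. Sntb2 was at -0.014 without the block on the same genes, at -0.026 without block and filter, at -0.013 with the block and no filter, at -0.0079 with RLE, at -0.012 with DESeq2 and at -0.0074 in the joint fit. Leaving out 1 preparation moved Cpeb3 from -0.095 to 0.16, Mex3b from -0.11 to 0.041, Ranbp2 from -0.10 to 0.068 and Sntb2 from -0.13 to 0.084.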
